A study of Homo sapiens with 6 samples.

Results

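The genes described here are interferon-stimulated genes, transcripts whose levels rise when a cell answers an interferon or a viral nucleic acid. A list of 48 such genes was matched by symbol to the annotation of a gene array, and 46 of them were measured among 18417 genes in all. STAT2 and GBP1 had no probe set listed for them alone and were not analysed here. GBP2 was the 1 member with more than 1 probe set, and its brightest, by the mean over 6 arrays, stood for it. PC3 cells, a culture line from a prostate cancer that grows without androgen, were used throughout. They were transfected with miR-205, a microRNA of epithelial cells, as a mimic (3 arrays) or with a negative control mimic (3 arrays). In both groups AGO2, an Argonaute protein that holds microRNAs and their target transcripts, was immunoprecipitated, and the RNA that came with it was put on the array. Both groups therefore shared the line, a transfected small RNA and the immunoprecipitation. Input RNA was not analysed here. A change in how much of a transcript was bound by AGO2 and a change in how much of it the cells held cannot be told apart in these values.

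Interferons are secreted proteins that bind receptors on the producing cell and its neighbours. The type I receptor consists of IFNAR1 and IFNAR2, which carry the kinases TYK2 and JAK1. These phosphorylate STAT proteins, and a complex that includes STAT2 and IRF9 enters the nucleus and binds a DNA sequence called the interferon-stimulated response element. The genes under its control restrict viruses by degrading or sequestering foreign RNA, by changing membranes, and by tagging proteins with the ubiquitin-like modifier ISG15. IRF1 binds a similar element and is itself induced by interferon gamma and by NF-kappa-B. Some of these genes are also transcribed in tumour cells that are not infected.

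The reagent is shown because it is the only planned difference between the groups. The labels give its name without the arm, and RefSeq (GRCh38.p14) places the 5p arm of MIR205 at chr1:209432166-209432187 on the plus strand. Its seed, bases 2 to 8, is in capitals.
hsa-miR-205-5p: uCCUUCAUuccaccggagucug

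With the miR-205 mimic, 22 of the 46 measured members (47.8%) were higher in the AGO2 immunoprecipitate at an adjusted p under 0.05, and 0 were lower. The members and their roles had been picked with earlier results of these arrays known, so the counts are not independent of the data. Over all 18417 genes, 12.6% were called higher and 14.0% were called lower by the same test, limma with Benjamini-Hochberg adjustment. These shares are the background for the counts given below for each role group and gene list. The rises were small, between 0.19 (OAS3) and 0.93 (PLSCR1) on the log2 scale, with a median of 0.30, which is a 1.23-fold difference. PLSCR1 and OAS1 were the 2 members (4.35%) that passed with at least a 1.5-fold rise, which 2.24% of all genes did. At an unadjusted p under 0.05, 27 members (58.7%) were higher and 1 (2.17%) was lower, against 17.9% and 19.9% of all genes. The median log2 difference of the 46 members was 0.22, and that of all genes was -0.02. For 26 members (56.5%) every miR-205 array lay above every control array, as it did for 19.9% of all genes. For 2 members, TRIM21 and IFI27 (4.35%), every miR-205 array lay below, as it did for 22.2% of all genes. Values are log2 intensities, and differences are miR-205 minus negative control.

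**Figure D1:**
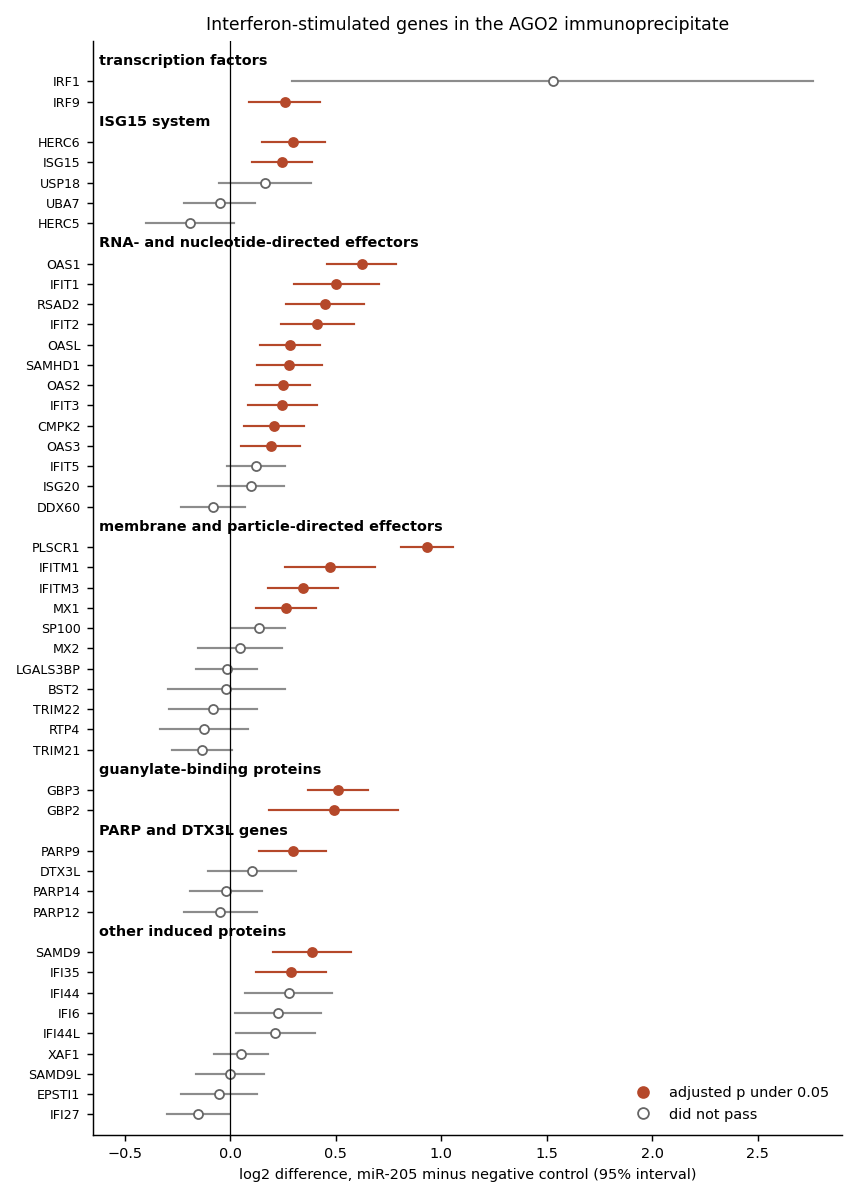
Log2 difference (miR-205 minus negative control, n = 3 arrays each) of the 46 measured interferon-stimulated genes, grouped by role, with 95% intervals from limma. Filled points passed at an adjusted p under 0.05: all 22 lie to the right of 0, from 0.19 to 0.93, while IRF1 has the largest difference (1.53), the widest interval (0.29 to 2.76) and an open point.

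Array medians ran from 7.83 to 7.85 with miR-205 and from 7.82 to 7.85 with the control, and the first principal component, with 69.5% of the variance, separated the groups. Negative control replicate 2 stood apart from the other 2 control arrays on the second component (13.1%). On the first it lay at 11.2, against 22.2 and 23.8 for control replicates 1 and 3 and -18.3 to -19.6 for miR-205. The epithelial keratins KRT8 (means of 12.1 with miR-205 and 11.2 with the control) and KRT18 were bright. So were vimentin and the adhesion receptor CD44. Of 7 measured markers of the line and of prostate epithelium, 2 were higher with miR-205 and 2 lower. KRT8 (difference 0.89, adjusted p = 6.39e-05) and KRT18 (0.55, adjusted p = 0.000274) were higher. Vimentin (-0.26, adjusted p = 0.00968) and CD44 (-0.28, adjusted p = 0.0106) were lower. The prostate-specific antigen gene KLK3 was near background at 6.06 with miR-205 and 6.08 with the control. Background was taken as 6.04, the 95th percentile of 341 olfactory receptor genes. Of 8 measured leukocyte markers, 6 lay at or below it. CD14 (means of 6.25 with miR-205 and 6.42 with the control) and TYROBP (7.51 and 7.66) lay above it. In both genes every miR-205 array lay below every control array, and neither passed. The list's mean per array ran from 5.32 to 5.39 with miR-205 and from 5.35 to 5.48 with the control, and PTPRC, the pan-leukocyte antigen, averaged 3.61 in both groups. Of 4 measured genes of plasmacytoid dendritic cells, which make much interferon, 1 was lower with miR-205 (TCF4, -0.64) and 0 were higher. Their mean per array ran from 6.15 to 6.23 with miR-205 and from 6.29 to 6.46 with the control, and CLEC4C, their defining marker, averaged 4.82 with miR-205 and 4.81 with the control. TCF4 (means of 8.94 with miR-205 and 9.58 with the control) and GZMB (6.64 in both groups) lay above background. Among the interferon-stimulated genes, 7 lay at or below background: RSAD2, GBP2, BST2, MX2, TRIM22, RTP4 and EPSTI1. Of these, RSAD2 and GBP2 passed. Differences of such dim genes can be understated.

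Most of the members that act on RNA or on nucleotides rose: 10 of 13 passed, against 12.6% of all genes, and 0 fell. The OAS proteins sense double-stranded RNA and make the short oligoadenylates that activate RNase L. OAS1 stood at 9.11, 8.90 and 9.08 in the miR-205 arrays and at 8.44, 8.35 and 8.42 in the control arrays. The groups lay well apart, with a difference of 0.62 ± 0.07 (log2 difference ± SE, n = 3 arrays per group here and below, adjusted p = 0.000462). OAS2 read 8.54, 8.52 and 8.53 with miR-205 and 8.23, 8.28 and 8.33 with the control, a smaller separation of 0.25 (adjusted p = 0.0123). OASL, an OAS relative without the synthetic activity, had 7.64, 7.61 and 7.61 with miR-205 and 7.29, 7.29 and 7.43 with the control (difference 0.28, adjusted p = 0.0105). In OASL the highest control array was replicate 3, still below each miR-205 array. OAS3 passed by the narrowest margin of all members, with a difference of 0.19 and an adjusted p of 0.0478.

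Of the IFIT proteins, IFIT1 binds RNA that lacks the cap modifications of host transcripts. IFIT1 had levels of 10.17, 10.03 and 10.24 with miR-205 and of 9.70, 9.48 and 9.76 with the control (difference 0.50 ± 0.09, adjusted p = 0.00377). Its lowest array was control replicate 2. IFIT2 read 8.99, 8.98 and 9.05 with miR-205 and 8.44, 8.68 and 8.65 with the control (difference 0.41, adjusted p = 0.00433), and here control replicate 1 was the lowest array. IFIT3 rose by 0.25 (adjusted p = 0.0325). IFIT5 had a difference of 0.12 with a 95% interval of -0.02 to 0.26 and did not pass (adjusted p = 0.18), although its groups did not overlap.

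RSAD2 encodes viperin, a radical enzyme that makes a chain-terminating nucleotide, and CMPK2 is the nucleotide kinase encoded beside it. RSAD2 was dim, at 5.94, 5.95 and 6.06 with miR-205 and at 5.60, 5.37 and 5.63 with the control (difference 0.45, adjusted p = 0.00423). CMPK2 was brighter and rose by 0.21 (adjusted p = 0.0388). SAMHD1, which breaks down deoxynucleotides, rose by 0.28 (adjusted p = 0.0154) and was the brightest of these members that rose, with a mean of 10.9 with miR-205 and 10.6 with the control. The exonuclease ISG20 (0.10, interval -0.06 to 0.25) and the helicase-like DDX60 (-0.08, interval -0.23 to 0.07) did not pass.

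Among members that act at membranes or on viral particles, 4 of 11 rose and 0 fell. PLSCR1, a phospholipid scramblase of the plasma membrane, had the largest rise of any member that passed. It stood at 9.18, 9.14 and 9.19 with miR-205 and at 8.25, 8.24 and 8.22 with the control, so that the arrays of each group nearly coincided. The difference was 0.93 ± 0.05, or 1.91-fold (adjusted p = 2.38e-05), and PLSCR1 ranked 45 of all genes by p. The IFITM proteins hinder the fusion of viral and cell membranes. IFITM1 had 8.38, 8.15 and 8.53 with miR-205 and 7.92, 7.90 and 7.83 with the control (difference 0.47, adjusted p = 0.00665). The miR-205 arrays of IFITM1 were more scattered than its control arrays. IFITM3 read 11.31, 11.31 and 11.18 with miR-205 and 10.93, 11.02 and 10.82 with the control (difference 0.35, adjusted p = 0.00851). IFITM1, IFITM2 and IFITM3 are close in sequence, and how far their probe sets read each other's RNA was not tested. MX1, a dynamin-like GTPase that traps viral nucleocapsids, had 7.77, 7.70 and 7.67 with miR-205 and 7.39, 7.45 and 7.51 with the control (difference 0.27, adjusted p = 0.014).

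The other 7 members of this group did not pass. SP100, a nuclear body protein, had a difference of 0.14 (interval 0.01 to 0.26, adjusted p = 0.108). The Fc receptor and ubiquitin ligase TRIM21 had the opposite sign (-0.14, adjusted p = 0.149). BST2, which tethers budding virions, and the MX1 relative MX2 were dim, with differences of -0.02 and 0.05. TRIM22 and RTP4 were dim too, at -0.08 and -0.12. LGALS3BP, a secreted glycoprotein, was bright and differed by -0.02 with an interval of -0.16 to 0.13.

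**Figure D2:**
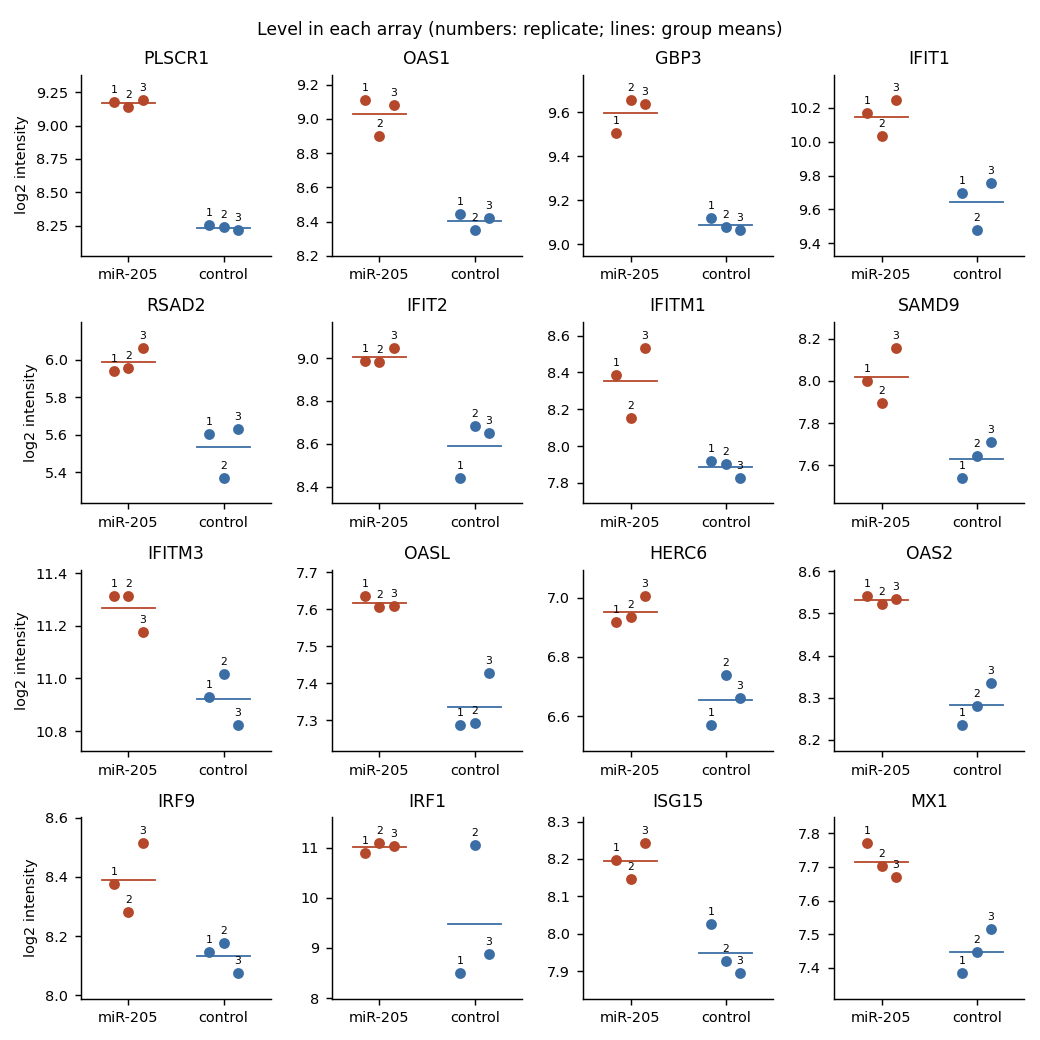
Log2 intensity in each of the 6 arrays for the 12 members with the smallest p and for IRF9, IRF1, ISG15 and MX1, with miR-205 on the left and the negative control on the right of each panel. Numbers are replicate labels, lines are group means, and axes do not start at 0. In 15 of the 16 panels the groups are separate, and in IRF1 control replicate 2 (11.05) lies among the miR-205 arrays. The choice of 12 panels by p favours separate groups. Among all 46 members, 26 were separate and higher, as were 19.9% of all genes.

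Both measured guanylate-binding proteins, GTPases that attack the membranes around intracellular pathogens, rose. GBP3 read 9.50, 9.65 and 9.64 with miR-205 and 9.12, 9.08 and 9.07 with the control (difference 0.51 ± 0.06, adjusted p = 0.00067). GBP2 was at background in the control arrays and rose by 0.49 ± 0.13 (adjusted p = 0.027). In GBP2, control replicate 1 (5.39) lay 0.44 below the mean of the other control arrays, nearly as far as the groups lay apart.

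Of the 5 genes of the ISG15 system, 2 rose and 0 fell. ISG15 itself had 8.20, 8.15 and 8.24 with miR-205 and 8.03, 7.93 and 7.90 with the control (difference 0.25, adjusted p = 0.0201). HERC6, a ligase-like relative of the human ISG15 ligase, had 6.92, 6.94 and 7.01 with miR-205 and 6.57, 6.74 and 6.66 with the control (difference 0.30, adjusted p = 0.0105). HERC5, the main ISG15 ligase in human cells, had 6.25, 6.43 and 6.11 with miR-205 and 6.43, 6.35 and 6.56 with the control. Its groups overlapped, and the difference of -0.19 did not pass (adjusted p = 0.169). The activating enzyme UBA7 had a difference of -0.05. USP18, which removes ISG15 and also dampens the type I receptor, had a difference of 0.16 (adjusted p = 0.256). Control replicate 2 of USP18 (8.23) lay above all 3 miR-205 arrays, and without that array the difference was 0.27 (adjusted p = 0.0219).

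Of the 2 measured transcription factors, IRF9 passed and IRF1 did not. IRF9, the DNA-binding part of the STAT complex, stood at 8.38, 8.28 and 8.51 with miR-205 and at 8.15, 8.18 and 8.08 with the control (difference 0.26, adjusted p = 0.0315). IRF1 read 10.91, 11.09 and 11.03 with miR-205 and 8.503, 11.05 and 8.89 with the control. Its mean difference of 1.53 ± 0.54 was the largest of any member and missed the threshold (adjusted p = 0.0697). Control replicate 2 stood at the miR-205 level, far above the other control arrays. Without that array IRF1 was 2.31 higher with miR-205 (adjusted p = 8.96e-06). With any 1 of the other 5 arrays left out it did not pass, with adjusted p up to 0.217. Over all settings tried its adjusted p ran from 8.96e-06 to 0.276, and it also passed with array weights (0.0122) and with the replicate block (0.0355).

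Of the PARP and DTX3L genes, 1 of 4 rose. PARP9, an ADP-ribosyltransferase that works in a complex with the ubiquitin ligase DTX3L, rose by 0.30 (adjusted p = 0.0137). DTX3L differed by 0.10 (interval -0.11 to 0.31), PARP14 by -0.02 and PARP12 by -0.05. Of 9 other induced genes, 2 rose. SAMD9, an antiviral factor active against poxviruses, had 8.002, 7.89 and 8.16 with miR-205 and 7.54, 7.64 and 7.71 with the control (difference 0.39, adjusted p = 0.00843). IFI35 rose by 0.29 (adjusted p = 0.0195). IFI44 (0.28, adjusted p = 0.0542), IFI6 (0.23, adjusted p = 0.0975) and IFI44L (0.21, adjusted p = 0.0898) did not pass, with intervals above 0. IFI27 had a negative difference of -0.15 (adjusted p = 0.122) with groups that did not overlap. The apoptosis-linked XAF1 (0.05), SAMD9L (-0.00066) and EPSTI1 (-0.05) lay near 0.

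The 24 members that did not pass had a median difference of -0.01. Apart from IRF1, the highest upper 95% bound of the other 23 was 0.484 (IFI44). A difference of the size of PLSCR1 lies outside their intervals. Of these 23, BST2, MX2, TRIM22, RTP4 and EPSTI1 lay at or below background, where a rise can be understated. For those genes the interval cannot exclude a larger rise. Measured differences of the 46 members ranged from -0.19 (HERC5) to 1.53 (IRF1), neither of which passed. Of the 46, 33 were positive and 13 negative. Of the 22 that rose, 12 passed with any 1 array left out: PLSCR1, OAS1, GBP3, IFIT1, RSAD2, IFIT2, IFITM1, SAMD9, IFITM3, OASL, HERC6 and OAS2. The others lost their call in at least 1 such fit, with highest adjusted p between 0.0567 (PARP9) and 0.145 (OAS3). Without miR-205 replicate 1, 14 members were higher, and IRF9, ISG15, IFIT3, OAS3, CMPK2, MX1, GBP2 and PARP9 lost their calls. Without miR-205 replicate 3, 14 were higher, and IRF9, ISG15, IFIT3, OAS3, SAMHD1, CMPK2, GBP2 and IFI35 lost theirs. Without control replicate 3 (15 higher), miR-205 replicate 2 (17) or control replicate 1 (19), the calls lost were all among these 10 genes.

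IRF1 was high in control replicate 2, so the other 45 members, whether they passed or not, were set beside it array by array. Relative to each gene's mean over the 6 arrays, their median was 0.08, 0.07 and 0.13 in the miR-205 arrays and -0.10, -0.11 and -0.08 in control replicates 1, 2 and 3. Control replicate 2 was above the mean of the other 2 control arrays for 20 of the 45 and was the lowest control array for 16 of them. Its place among the 22 members that rose is not read as a result, since a high control array keeps a gene from passing.

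NF-kappa-B target genes, which answer inflammatory signals, were more uneven. Of 12 measured, 7 rose and 0 fell. Of the 7, NFKB2 (0.44, adjusted p = 0.00105) and the chemokine CCL20 (2.56, adjusted p = 0.00664) passed with any 1 array left out. The other 5, among them the chemokines CXCL3 (1.55, adjusted p = 0.0215) and CXCL8 (3.01, adjusted p = 0.032), passed in 1 of 6 such fits, the one without control replicate 2. Without that array 9 of the 12 were higher. The list's median relative to each gene's mean was 0.88, 0.97 and 0.92 in the miR-205 arrays and -1.66, 0.48 and -1.65 in the control arrays, and control replicate 2 was the highest control array for 9 of the 12. TNFAIP3, a feedback inhibitor of NF-kappa-B that did not pass (adjusted p = 0.0581), read 10.86, 11.10 and 11.01 with miR-205 and 7.66, 10.96 and 7.87 with the control. IRF1 and TNFAIP3 were thus low in the same 2 control arrays.

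Among all 46 interferon-stimulated genes, the largest distance of 1 control array from the other 2 was that of IRF1 (2.36 above, replicate 2), followed in other genes by GBP2 (0.44 below, replicate 1), BST2 (0.37 above, replicate 1), USP18 (0.32 above, replicate 2) and DTX3L (0.31 below, replicate 2). Without control replicate 2, 23 members were higher and 0 lower, 21 of them among the 22. CMPK2 lost its call (adjusted p = 0.0781), and IRF1 and USP18 gained one.

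**Figure D3:**
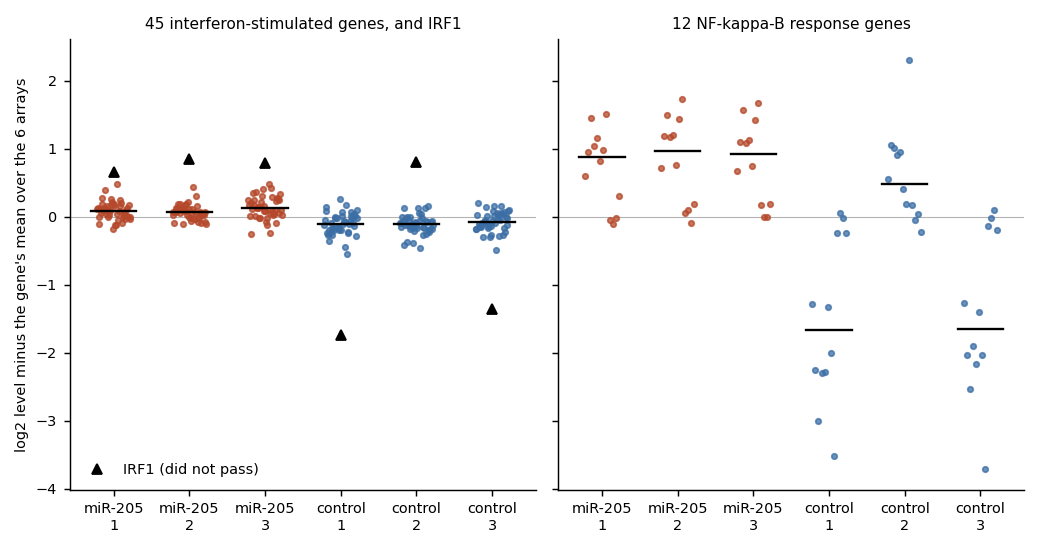
Level of each gene minus its mean over the 6 arrays (log2), by array, with miR-205 replicates on the left and control replicates on the right; points are genes and bars are medians. The 45 members other than IRF1 (left panel) have medians of -0.10, -0.11 and -0.08 in the control arrays, IRF1 (triangles) is high in control replicate 2, and the 12 NF-kappa-B response genes (right panel) have medians of -1.66, 0.48 and -1.65, with control replicate 2 the highest control array for 9 of them.

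Genes upstream of the interferon-stimulated genes did not share one direction. Of 16 measured interferon genes, 13 lay at or below background, 0 rose and 2 fell. IFNB1, the interferon most cells make first, read 4.23, 4.08 and 4.36 with miR-205 and 4.18, 4.08 and 4.05 with the control. Its difference of 0.12 (interval -0.06 to 0.30) did not pass (adjusted p = 0.323). All 6 values lay far below background, where a change can be understated. IFNE, an interferon of epithelia, had a difference of -0.45 (adjusted p = 0.00418) below background, and IFNL3 one of -0.22 (adjusted p = 0.0289; 0.118 at most with 1 array left out). Of 10 receptor and JAK-STAT genes, 0 rose and 1 fell. That gene was IFNAR1, at 10.40, 10.33 and 10.38 with miR-205 and 10.77, 10.77 and 10.83 with the control (difference -0.42 ± 0.06, adjusted p = 0.000973). IFNAR2 (-0.08, interval -0.21 to 0.05), JAK1 (-0.15, interval -0.31 to 0.01) and TYK2 (0.23, adjusted p = 0.0604) did not pass.

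Of 6 interferon regulatory factors outside the 48 genes, 3 rose and 0 fell: IRF5 by 0.33 (adjusted p = 0.0115), IRF3 by 0.31 (adjusted p = 0.00885) and IRF7 by 0.26 (adjusted p = 0.0173; 0.0743 at most with 1 array left out). The IRF2-binding proteins IRF2BP1 (-0.05) and IRF2BP2 (0.01), plotted with them, did not pass. IRF3 and IRF7 switch on interferon genes once RNA or DNA sensors fire. Of 15 genes of RNA and DNA sensing, 5 rose and 1 fell. The RNA sensor IFIH1 rose most, by 1.11 (adjusted p = 0.00035), against control arrays that all lay below background, with a mean of 5.69. The DNA sensor CGAS rose by 0.31 (adjusted p = 0.00534) and the RNA sensor RIGI by 0.28 (adjusted p = 0.00628), while the adaptor TRAF3 fell by 0.40 (adjusted p = 0.00852). Of 10 negative regulators of interferon signalling, 3 rose and 3 fell. The phosphatases PTPN1 (0.56, adjusted p = 0.000402), PTPN6 (0.55, adjusted p = 0.00282) and PTPN2 (0.31, adjusted p = 0.00587) rose, and SOCS3, an inhibitor of JAK kinases, fell by 0.47 (adjusted p = 0.00131). SOCS1, another JAK inhibitor, stood at 8.997, 8.99 and 9.01 with miR-205 and at 8.69, 9.61 and 8.76 with the control, with control replicate 2 the highest array.

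Interferon-induced genes outside the 48 were mixed. Of 35 measured, 8 rose (22.9%) and 4 fell (11.4%), with a median difference of -0.004. Of these genes, 6 also stand in the sensing list. PNPT1, a mitochondrial RNA exonuclease, rose by 0.48 (adjusted p = 0.000496), and MOV10, an RNA helicase that associates with Argonaute, by 0.53 (adjusted p = 0.00164). ZNFX1, an RNA helicase of antiviral defence, fell by 0.49 (adjusted p = 0.000888). Of 12 genes typical of the interferon gamma response, 0 rose and 0 fell. The difference between these lists and the members was not tested, and the members had been picked with earlier results of the same arrays known.

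**Figure D4:**
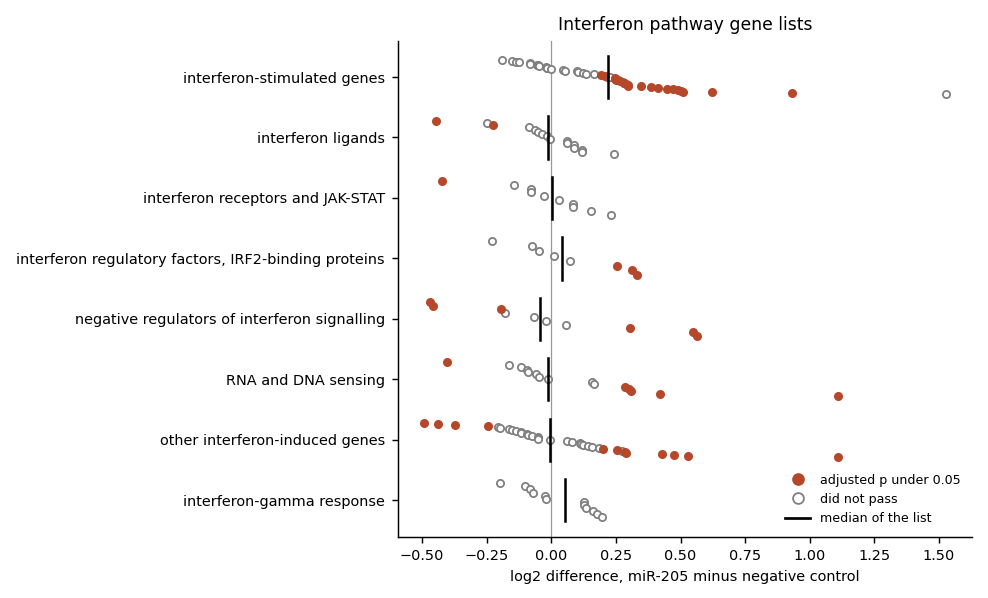
Log2 difference (miR-205 minus negative control) of each gene in the interferon-stimulated set and in 7 other lists of the pathway; filled points passed at an adjusted p under 0.05 and black bars are list medians. The interferon-stimulated set has a median of 0.22 and no filled point left of 0, while the other lists have medians near 0 and, in 5 of the 7, filled points on the left.

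Many members are neighbours in the genome. In the GRCh38.p14 annotation, 24 of the 46 lie within 200 kb of another member, in 10 clusters. In 4 clusters every measured member rose: OAS1, OAS3 and OAS2 on chromosome 12, IFITM1 and IFITM3 on chromosome 11, GBP3 and GBP2 on chromosome 1, and CMPK2 and RSAD2 on chromosome 2. In 5 clusters some members passed and others did not. SAMD9 (chr7:93099518-93117979) rose by 0.39, and its neighbour SAMD9L (chr7:93130056-93148385) had an interval of -0.16 to 0.16. The same split was seen between HERC6 and HERC5 on chromosome 4, MX1 and MX2 on chromosome 21, PARP9 and its neighbours DTX3L and PARP14 on chromosome 3, and IFIT1, IFIT2 and IFIT3 against IFIT5 on chromosome 10. In the remaining cluster, IFI44L and IFI44 on chromosome 1, neither passed. Over the whole list 22 of the 46 members rose, as did 12.6% of all genes. Neither the differences between neighbours nor a link between position and rise was tested.

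Promoter windows in RefSeq (GRCh38.p14), from 250 bases before to 50 after the start of a transcript, were given for 38 of the 46 members. The core of the response element was searched as GAAANNGAAA and, on the other strand, as TTTCNNTTTC. It was present in 28 of the 38 (73.7%), against 4.38% of 27305 genes with a window and 3.57% of all 35116 windows. A form with 1 free base, GAAANGAAA or TTTCNTTTC, was added after the sequences were seen, and 14 members (36.8%) held it, against 3.87% of those genes and 3.12% of all windows. One or both forms stood in 15 of 18 members that rose and in 17 of 20 that did not pass, so members with the letters were found on both sides of the threshold. The gamma-activated sequence TTCNNNGAA, which reads alike on both strands, stood in 13 of the 38, against 9.38% of those genes and 7.66% of all windows. Its matches can overlap those of the response element. IRF1 and IRF9 held this sequence and neither form of the response element.

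**Figure D5:**
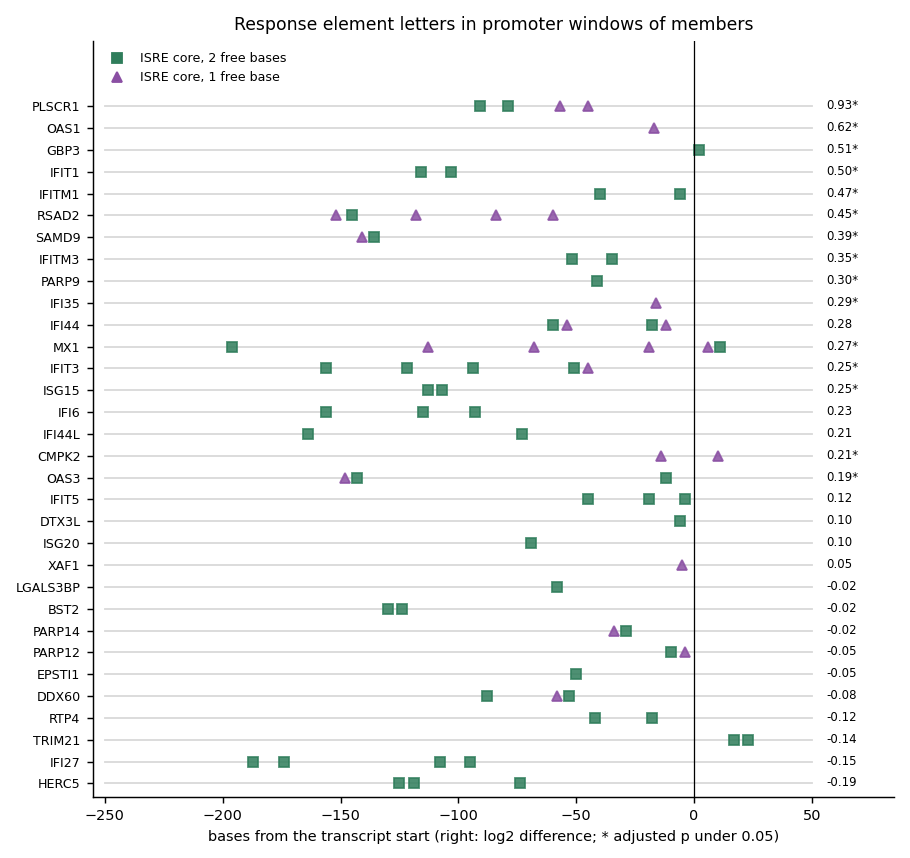
First base of each match to the response element core with 2 free bases (squares) or 1 free base (triangles), in bases from the transcript start, for the 32 members that held one; members are ordered by log2 difference (right margin, * for adjusted p under 0.05) and genes with several windows show all of them. Matches lie mostly upstream of the start and occur from PLSCR1 (0.93) at the top to HERC5 (-0.19) at the bottom.

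The 150 bases before the transcript start are shown for the 2 members with at least a 1.5-fold rise that passed, for IFIT1, and for HERC5, which held 3 matches and did not pass. Each is written 5′ to 3′ on the strand of its gene, with matches to either form of the response element core in capitals. PLSCR1 is from chr3:146544608-146544757 (minus strand), OAS1 from chr12:112906812-112906961 (plus), IFIT1 from chr10:89392473-89392622 (plus) and HERC5 from chr4:88456969-88457118 (plus). In HERC5, the first 2 matches overlap and form 1 run of capitals.
PLSCR1: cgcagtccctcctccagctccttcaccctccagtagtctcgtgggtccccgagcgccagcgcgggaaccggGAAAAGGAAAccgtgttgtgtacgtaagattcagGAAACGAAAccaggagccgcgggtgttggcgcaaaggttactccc
OAS1: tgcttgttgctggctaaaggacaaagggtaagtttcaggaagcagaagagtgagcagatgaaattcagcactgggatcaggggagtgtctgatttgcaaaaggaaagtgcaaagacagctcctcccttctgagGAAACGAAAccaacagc
IFIT1: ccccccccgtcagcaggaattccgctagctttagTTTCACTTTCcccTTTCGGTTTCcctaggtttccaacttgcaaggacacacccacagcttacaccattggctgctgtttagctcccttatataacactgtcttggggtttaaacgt
HERC5: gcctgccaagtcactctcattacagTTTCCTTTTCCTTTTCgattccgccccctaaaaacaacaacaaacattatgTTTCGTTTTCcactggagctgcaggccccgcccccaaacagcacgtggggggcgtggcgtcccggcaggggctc
PLSCR1 and OAS1, the members with the smallest p, shared the stretch aggaaacgaaacca, which begins 47 bases before the start in PLSCR1 and 19 before it in OAS1. On either strand it stood in windows of 2 genes of the 27305 with a window, these 2. The stretch was picked, after their values were seen, as the longest one common to the bases before the start in both windows. Its presence in both was therefore fixed, and its rarity is not read as a result. Its inner letters GAAACGAAA, on either strand, also stood in other members. Some of those passed, such as RSAD2 and CMPK2, and some did not, such as PARP14 and XAF1.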

How the data were processed

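The deposited values are log2 intensities of probe sets, made by the authors with RMA (background correction, quantile normalization and summary) in Expression Console 1.1.2 from Affymetrix, as the submitters' processing notes name it, and were used as deposited. Of 33297 probe sets, 19460 carried a single gene symbol, giving 18417 genes. Each gene was tested with limma 3.58.1 (R 4.3.3), using lmFit and eBayes with a group term alone. The test was two-sided, p-values were adjusted by Benjamini-Hochberg over all 18417 genes, and the threshold was 0.05. Intervals are 95% intervals of that fit. The series design calls the samples biological triplicates, and their number limits the precision. The members, roles and gene lists were chosen with earlier results of these data known. By the rule for named genes, every member was accounted for, values in every array were given for those past the threshold with a 1.5-fold change or among the 12 smallest p and for IRF9, IRF1, ISG15, IFIT1 and MX1, and each pathway list gave up to 4 passing genes with the smallest p plus set key genes. TNFAIP3, SOCS1, USP18 and HERC5 were shown by array after their values were seen. Promoter and microRNA sequences are from RefSeq (GRCh38.p14). The fit was tested on simulated data. Alternatives were other normalizations, probe set rules, filters and variance models, a replicate block and leaving out each array.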

Additional observations from a re-analysis of the deposited data

Results flagged for a closer look

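A probe set listed for GBP1, GBP3 and the pseudogene GBP1P1 together was outside the gene comparison, and it too was higher with miR-205. It read 9.75, 9.70 and 9.84 with miR-205 and 9.14, 9.01 and 9.12 with the control, a log2 difference of 0.67 ± 0.07 (SE, adjusted p = 0.00227 by limma over all probe sets). Which of the 3 genes it reads cannot be told apart.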

How the results depend on the processing

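Between 17 and 24 members, and 1629 to 2616 of all genes, were higher under other normalizations, probe set rules, moderated variance models and array weights. Under any setting tried, 0 members were lower. With all probe sets tested, IRF9, IFIT3, OAS3, CMPK2 and GBP2 lost their calls. Without moderation of the variance, 11 members were higher (10 of the 22), the count of all genes called higher was 1363 and that of all genes called lower was 1677. Leaving out 1 array gave 14 to 23 members higher, 1588 to 2668 genes higher, 1777 to 2881 genes lower, and a median change of members from 0.18 to 0.24. With genes above background only, that median was 0.25 over 39 members. Same-numbered arrays shared little deviation (correlations of 0.06, 0.09 and 0.01). Low correlations cannot exclude a pairing, so whether the numbers pair the arrays is not known. Each miR-205 array correlated best with the control array of its number, but control replicate 3 did so with miR-205 replicate 1. With the replicate block 21 members were higher, 19 of them among the 22, beside 2204 of all genes. Cyclic loess, chosen after seeing the data, gave 23 members higher and turned SAMD9L to 0.020. With 1 array left out, 8 members changed sign, none called in either fit and the cause not tested. Their ranges were -0.11 to 0.0088 for UBA7, -0.10 to 0.11 for BST2, -0.026 to 0.099 for MX2, -0.057 to 0.0039 for LGALS3BP, -0.11 to 0.0038 for PARP12, -0.057 to 0.051 for PARP14, -0.0020 to 0.16 for DTX3L and -0.053 to 0.041 for SAMD9L.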

Other observations

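A second probe set of GBP2 had a log2 difference of 0.39 (adjusted p = 0.243 over all probe sets), against 0.49 (0.0758 over all probe sets) for the one used. A probe set shared by USP18 and USP41P had a difference of 0.32 (adjusted p = 0.0606), and 1 shared by SP100, CTCFL and HMGB1 had a difference of -0.26 (adjusted p = 0.0384), with levels of 12.49, 12.41 and 12.36 with miR-205 and 12.73, 12.67 and 12.64 with the control.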
